A study of Mus musculus with 8 samples.

Results

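The genes described here are 6 enzymes of heme synthesis (Alad, Uros, Urod, Cpox, Ppox and Fech) and Tfrc, the receptor that brings transferrin-bound iron into the cell. They were chosen by name and function, with earlier results of these data known, and are 7 of the 27998 genes in the deposited table. All 7 had UMIs in every pool, between 3297 UMIs for Uros and 34371 for Urod. Their levels were followed across the progenitor states of mouse bone marrow and across the 8 pools of mice.

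KL cells, sorted from bone marrow as c-Kit+ (CD117+) cells without CD3, CD4, CD8, CD45R, CD11b, TER119 or GR1, came from female B6 mice aged 3 to 4 months. SPF mice stayed in a barrier facility free of specific pathogens, and CVT mice were moved to a conventional facility and co-housed there for 1 month with mice raised in it. The labels name 10 mice of each group (the study itself counts fewer for this experiment), whose cells were pooled by 2 or 3 mice into 4 pools, SPF pools 1, 2, 7 and 8 and CVT pools 3, 4, 5 and 6, and each pool gave 1 library by the droplet method of 10x Genomics. The mice are inbred and no group carries a transgene in the labels used here. Since the cells of several mice make up 1 library, the replicate is the pool, and the spread between mice inside a pool cannot be seen. TER119, one of the sort's markers, is carried by maturing erythroblasts and red cells, so the sort itself limits how late an erythroid cell could be captured.

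Heme is made from glycine and succinyl-CoA by a chain of enzymes that begins and ends in the mitochondrion. Alas1 or, in erythroid cells, Alas2 makes the first precursor, Alad joins it into porphobilinogen in the cytosol, Uros later closes the ring, Urod and Cpox trim its side chains, Ppox oxidizes it, and Fech inserts the iron. Erythroid cells need large amounts of heme for hemoglobin and take up iron through Tfrc, whose mRNA is known to be stabilized when iron in the cell is low.

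The RefSeq start regions of 6 of the 7 genes were read as 9 windows (GRCm38.p6, mouse), from 250 bases before an annotated start to 50 after it, and searched on both strands for the letters bound by GATA factors (AGATAA and its variant TGATAA, or the same with a final G, which are AGATAG and its variant TGATAG) and for CACCC, the letters of Klf1-type sites. GATA letters were found in 2 windows of members, the single window of Cpox and the second of Uros, and 29.8% of all 32851 windows held them. CACCC was found in 5 windows, of Alad, Urod, Cpox and both of Tfrc, against 57.5% of all windows. These matches describe the letters only. The 250 bases before the start are shown for Cpox and Ppox, the members with the largest and the smallest ratio of erythroid-like to other cells below, for Uros, whose second window held GATA letters, and for Tfrc, the iron receptor. They are written 5′ to 3′ along the gene's strand, and capitals mark the GATA letters, all of which lie on the opposite strand.
Cpox, chr16:58669958-58670207, plus strand: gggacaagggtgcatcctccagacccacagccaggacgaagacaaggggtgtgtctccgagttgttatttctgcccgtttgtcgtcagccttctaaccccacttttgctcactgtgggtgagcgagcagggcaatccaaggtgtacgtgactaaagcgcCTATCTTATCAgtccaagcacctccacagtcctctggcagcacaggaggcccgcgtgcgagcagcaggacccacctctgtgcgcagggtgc
Uros, second start, chr7:133702501-133702750, minus strand: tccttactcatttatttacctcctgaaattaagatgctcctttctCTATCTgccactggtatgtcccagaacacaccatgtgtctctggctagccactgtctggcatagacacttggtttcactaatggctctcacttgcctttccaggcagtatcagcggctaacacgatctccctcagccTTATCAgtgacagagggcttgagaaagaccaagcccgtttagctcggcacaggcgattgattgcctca
Ppox, chr1:171281187-171281436, minus strand: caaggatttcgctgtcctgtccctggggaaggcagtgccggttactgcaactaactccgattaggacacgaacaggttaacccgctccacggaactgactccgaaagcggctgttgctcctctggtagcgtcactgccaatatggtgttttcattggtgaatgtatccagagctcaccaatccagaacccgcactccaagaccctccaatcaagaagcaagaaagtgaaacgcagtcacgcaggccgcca
Tfrc, first start, chr16:32608646-32608895, plus strand: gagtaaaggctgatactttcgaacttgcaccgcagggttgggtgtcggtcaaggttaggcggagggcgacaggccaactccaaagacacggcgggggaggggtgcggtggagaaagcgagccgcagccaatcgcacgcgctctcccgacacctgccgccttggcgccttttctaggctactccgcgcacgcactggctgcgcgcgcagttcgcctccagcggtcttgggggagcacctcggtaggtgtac
In Cpox the AGATAG and TGATAA matches begin 91 and 86 bases before the start and share 1 base, and another match, AGATAA, begins 4 bases after the start, outside the letters shown. In Uros the matches lie 205 bases (AGATAG) and 68 bases (TGATAA) before the start. This Uros window lies inside the gene, outside its exons, because the 2 annotated starts of Uros are 6795 bases apart. The windows of Cpox, Ppox and Tfrc shown here overlap no annotated gene.

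The file held 29891 cells with 335844251 UMIs, between 19041749 and 59812346 per pool, and 522 barcodes occurred in more than 1 pool. Cells were clustered after all genes of the heme and iron lists had been taken out of the variable genes, and of 33 clusters 26 could be named from marker lists as "X-like" while 7 with 20.07% of the cells could not. Libraries differed in composition: late granulocyte markers summed to between 5981 CPM (UMIs per 1000000 UMIs of the summed cells, the unit of every level below) in pool 4 and 47120 in pool 7, and globin genes in erythroid-like cells to 344 to 474 CPM in each of pools 1 to 4 but 5370 to 21420 CPM in the others. By their labels pools 1 to 4 came from the mice with numbers up to 10 and the other 4 pools from mice 11 to 20, and each of these sets of pools holds 2 pools of either housing group. Pool 7 was the lowest of the 8 pools in the KL sums for 7 of the 7 members and in the erythroid-like sums for 5 of the 7, and it had the highest share of its erythroid-like cells in cluster 2 (68.67%).

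Erythroid-like cells were 5580 cells in 5 clusters, whose leading genes included Car1, Aqp1, Ermap and Rhd, with 7 to 11 of 15 erythroid markers found per cluster. Macrophage markers, which would mark cells of erythroblastic islands, summed to between 1.27 and 6.59 CPM in these cells over the pools, with all 8 markers found. Placed in the order of Rhd, a blood group membrane gene that is not among the 7, they run from cluster 2 (2453 cells, median 8142 UMIs per cell) through cluster 10 (1132 cells, 22040 UMIs), cluster 13 (1022 cells, 19752 UMIs) and cluster 17 (835 cells, 30145 UMIs) to cluster 29 (138 cells, 12161 UMIs). The sum of 7 stage genes (Car1, Ermap, Rhd, Aqp1, Icam4, Hemgn and Mfsd2b) would order these clusters otherwise, with cluster 29 lowest. That sum was 3666, 4522, 4708, 4418 and 3198 CPM in clusters 2, 10, 13, 17 and 29. Car1 alone gave 2907, 3770, 3854, 3356 and 1290 CPM of it. Cluster 29 was led by globins, Alas2 and Slc4a1, and held 4 to 8 cells in each of the first 4 pools and 19 to 38 in each of the last 4. The clusters were built from the same cells, so differences between them are given with no test, and as the libraries count 3′ ends, levels are compared for 1 gene at a time.

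Every member was higher in cluster 29 than in cluster 2 in 8 of 8 pools. The largest ratios were those of Tfrc (14.4), Cpox (11.9), Uros (10.97) and Fech (10.9), and Ppox (5.35), Alad (3.85) and Urod (3.28) had smaller ones. From cluster 2 to cluster 17, 7 of the 7 members were at least 1.5-fold higher, as were 15.9% of the 10276 genes with at least 10 CPM in some cluster.

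Alad, which joins aminolevulinic acid into porphobilinogen, was already at 145 ± 17.9 CPM in cluster 2 (SD, n = 8 pools). It stood at 205 ± 19.99 in cluster 10, 211 ± 20.03 in cluster 13, 291 ± 27.9 in cluster 17 and 560 ± 110 CPM in cluster 29. Clusters 10 and 13 could not be placed in order for Alad, since 13 was above 10 in 4 of 8 pools only. Urod, which decarboxylates the closed ring, had a like range, from 147 ± 18.2 to 482 ± 110 CPM, and each step up was seen in 7 or 8 of 8 pools.

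Uros, the enzyme that closes the ring, had the fewest UMIs of the members. Its level was 9.97 ± 3.17 CPM in cluster 2, 11.3 ± 1.86 in cluster 10 and 16.9 ± 4.30 in cluster 13. It then stood at 32.3 ± 6.64 CPM in cluster 17 and 109 ± 32.4 CPM in cluster 29. Uros differed little between the first clusters (10 above 2 in 5 of 8 pools), and most of its increase lay between clusters 13, 17 and 29, each step seen in 8 of 8 pools. In cluster 29 the Uros values rested on 6 to 44 UMIs per pool.

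Cpox, the mitochondrial oxidase that acts after Urod, was the member that stood higher at every step in every pool. Rhd, which set the order, was among the genes most like Cpox over the 33 clusters (Pearson correlation 0.953). The upward path of Cpox is therefore partly set by the choice of Rhd. Car1 would give another order, as it was lower in 17 than in 13 and in 29 than in 17 in all 8 pools. In cluster 2 its pools lay at 53.1, 59.9, 63.1, 75.1, 40.0, 44.6, 48.7 and 60.8 CPM for pools 1 to 8. In cluster 17 they lay at 307, 323, 314, 307, 270, 289, 315 and 315 CPM. No pool of cluster 17 came near any pool of cluster 2, and every step, 2 to 10 to 13 to 17 to 29, was upward in 8 of 8 pools. Means were 55.7 ± 11.3, 148 ± 18.2, 217 ± 25.4, 305 ± 17.3 and 662 ± 165 CPM.

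Ppox, the next oxidase, stood at 18.3 ± 3.53 CPM in cluster 2, 45.9 ± 4.82 in cluster 17 and 98.1 ± 22.5 in cluster 29. Fech, which inserts iron into protoporphyrin, had 22.1 ± 5.38 CPM in cluster 2 and 37.9 ± 8.03 in cluster 10, then 54.6 ± 14.2 in cluster 13 and 70.8 ± 9.51 in cluster 17. Fech had its widest step at the end, to 240 ± 45.2 CPM in cluster 29, which was 3.39 times cluster 17. Its 8 values in cluster 29 ran from 168 (pool 2) to 304 CPM (pool 6), all above the highest value in cluster 17 (77.7 CPM).

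Tfrc had the largest ratio over the path. Its pools lay at 16.1, 13.7, 19.8, 20.2, 17.7, 13.5, 8.96 and 19.01 CPM in cluster 2. In cluster 13 they lay between 75.2 and 88.3 CPM, above every pool of cluster 10 (30.2 to 54.2 CPM). Thus for Tfrc the early steps were large (2.74-fold to cluster 10 and 1.87-fold to cluster 13), the step to cluster 17 was small (1.24-fold, in 7 of 8 pools), and cluster 29 stood at 232 ± 59.3 CPM.

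**Figure D1:**
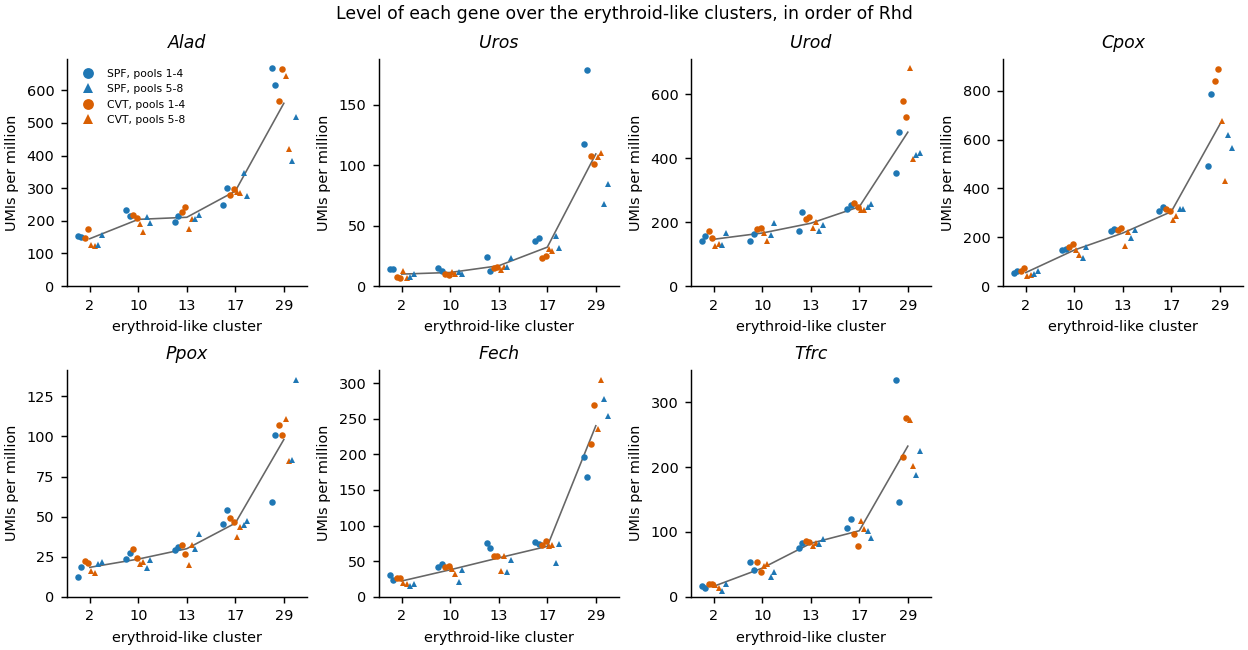
Level (CPM, linear axis from 0) of the 7 genes in the 5 erythroid-like clusters, placed left to right in order of Rhd. Each point is 1 pool (colour for SPF or CVT, shape for pools 1-4 or 5-8) and the line joins the means of 8 pools; Cpox is higher at every step in all 8 pools, and each gene has its widest step on this scale to cluster 29.

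Depth and cycling also varied along this path. The proliferation marker Mki67 stood at 23.0, 252, 96.7, 221 and 578 CPM in clusters 2, 10, 13, 17 and 29, so that it fell back from cluster 10 to cluster 13 in 8 of 8 pools while Cpox and Tfrc were higher in 13 than in 10 in 8 of 8. The part of depth and cycling in the levels of the members was not tested.

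Alas1, the housekeeping form of the first enzyme, did not follow the members, with 15.5 ± 3.04 CPM in cluster 2 and 12.9 ± 13.1 in cluster 29, higher in cluster 29 in 2 of 8 pools. Alas2, the erythroid form, had no UMI in cluster 2, 4, 11 and 23 UMIs in clusters 10, 13 and 17, and 743 in cluster 29, where it stood at 301 ± 263 CPM. Alas2 stood at 0.150, 0.597 and 0.919 CPM in clusters 10, 13 and 17. Its steps from cluster 2 to 10, 13 and 17 were upward in 3, 5 and 4 of 8 pools, and those of Cpox in 8 of 8.

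Genes of the neighbouring steps were counted over the same span, cluster 2 to cluster 17, at the same fold and with 10 CPM in some cluster. A list of 13 genes covered transport of heme, its precursors and iron across mitochondrial and other membranes, not all of them transporters themselves. Of these, 6 of 13 were at least 1.5-fold higher and none lower (15.9% of all genes were higher and 31.2% lower). Among the 6 were Tmem14c, a mitochondrial porphyrin carrier (256 to 795 CPM over all pools), and Slc25a38, a glycine carrier (23.3 to 58.9 CPM). Slc25a37, the mitochondrial iron importer mitoferrin-1, was level from cluster 2 to cluster 17 (13.9 and 13.7 CPM) but stood at 243 CPM in cluster 29. For iron uptake, storage and regulation 5 of 15 were higher and 2 lower (Slc39a14 and Fbxl5), with the ferritin heavy chain Fth1 at 1357 and 3674 CPM and the ferrireductase Steap3 at 35.4 and 73.0 CPM. For iron-sulfur cluster assembly 6 of 10 were higher, such as Glrx5 (297 to 693 CPM), and 1 lower (Hscb). For heme breakdown, export and sensing 3 of 9 were higher, such as Hebp1 (24.2 to 231 CPM), and 3 lower (Hmox1, Slc48a1 and Bach1, the heme-sensing repressor, 19.2 to 8.21 CPM). Slc39a14 and Hmox1 reached 10 CPM only in clusters outside the erythroid-like ones. In cluster 2 Slc39a14 stood at 2.18 CPM and Hmox1 at 0.954 CPM, and in cluster 17 Hmox1 stood at 0.249 CPM. Counting Slc39a14 and Hmox1 as lower thus rests on very low levels. Genes named in this paragraph were chosen after their values were seen.

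UMIs of the 7 genes were also counted outside the erythroid-like clusters. RNA freed from erythroid cells would carry UMIs of Car1, which erythroid cells hold at a high level, so each gene was set beside the level it would have if it followed Car1 in the proportion seen in erythroid-like cells. Of 28 other clusters, Cpox was at or below that level in 7, Tfrc in 4, Alad, Urod, Ppox and Fech in 1 each and Uros in 0. Such values cannot be told apart from freed RNA, and they do not show that expression is absent. The level takes all Car1 UMIs of a cluster as freed RNA, which was not tested. For Cpox these clusters included 18, with Car1 at 51.35 CPM, and 1, 27 and 33, with Car1 at 1262, 1075 and 1988 CPM. Levels per pool in erythroid-like cells exceeded those in all other cells by 9.70 ± 1.47 times for Cpox (SD, n = 8 pools; lowest 7.93 in one pool, highest 12.3), 4.22 ± 0.435 for Tfrc and 4.13 ± 0.268 for Alad. The ratio was 3.86 ± 0.587 for Fech, 2.98 ± 0.260 for Urod, 2.82 ± 0.218 for Uros and 2.45 ± 0.283 for Ppox, and each was above 1 in 8 of 8 pools. For comparison the ratio was 0.161 ± 0.0313 for Alas1, which was lower in erythroid-like cells in all 8 pools. Erythroid-like cells held 27.1% of all UMIs (mean of 8 pools), but 77.5% of the UMIs of Cpox (69.3% to 83.4%), 60.3% of Tfrc, 59.9% of Alad and 47.1% of Ppox.

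Among 12 named classes, erythroid-like cells had the highest mean for the 6 enzymes. The 7 unnamed clusters are outside this order. Over all pools the unnamed cluster 33 (31 cells, with Car1 at 1988 CPM) stood at 32.1 CPM for Ppox. It stood at 92.5 CPM for Cpox and 115.6 CPM for Alad, below the 112.5 and 128.1 CPM in proportion to Car1. The unnamed cluster 1 (2714 cells, Car1 at 1262 CPM) stood at 120.2 CPM for Urod and 83.4 CPM for Alad. For Alad erythroid-like cells stood at 215 ± 16.9 CPM and the next class, megakaryocyte-like, at 72.3 ± 8.21 CPM. For Urod the next class was also megakaryocyte-like (193 ± 17.4 and 93.1 ± 10.4 CPM), and for Uros basophil and mast-like (18.7 ± 2.61 and 9.77 ± 3.10 CPM). In these 3 genes the erythroid-like level was above the next class in 8 of 8 pools, and the classes below it mostly did not differ from their neighbours in the order beyond their spread.

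Cpox stood at 185 ± 26.1 CPM in erythroid-like cells and at 38.0 ± 28.8 CPM in the next class, dendritic-like. That class had 79 cells and at most 3 Cpox UMIs in a pool. LTHSC-like cells (26.7 ± 6.91 CPM) and megakaryocyte-like cells (27.2 ± 6.27 CPM) had Cpox at the same level within their spread, and late granulocyte-like cells had the lowest (5.79 ± 2.69 CPM). A Cpox UMI was seen in 65.5% of erythroid-like cells (median 14047 UMIs per cell) and in 4.53% of late granulocyte-like cells (median 7171 UMIs). With each cell thinned to 2759 UMIs, and no cell left out since that is the smallest total of any cell, the shares were 29.9% and 1.03%. In the late granulocyte-like clusters 18, 23 and 26 Cpox stood at 1.42, 4.67 and 14.4 CPM over all pools. In proportion to Car1 it would stand at 2.90, 3.22 and 16.5 CPM. Clusters 18 and 26 were thus below that level and cluster 23 little above it, and Car1 itself stood at 291.2 CPM in cluster 26.

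For Ppox and Fech the next class was B-like, with 168 cells. Ppox stood at 30.6 ± 4.21 CPM in erythroid-like and 21.1 ± 16.9 CPM in B-like cells, a difference smaller than the spread over pools although seen in 7 of 8. Fech stood at 50.8 ± 6.13 and 16.5 ± 16.3 CPM. All 11 classes other than erythroid-like lay between 7.25 and 16.5 CPM for Fech. A Fech UMI was seen in 43.9% of erythroid-like and 5.50% of late granulocyte-like cells, and in 11.8% and 1.39% after thinning. For Ppox the shares were 34.1% and 10.8%, and 7.63% and 3.81% after thinning, the narrowest gap of these.

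Tfrc had another order than the enzymes. Dendritic-like cells had the highest mean, 117 ± 58.5 CPM, from 48 UMIs in all, with pools from 38.7 to 196 CPM. Erythroid-like cells followed at 61.5 ± 7.61 CPM, B-like cells at 29.6 ± 13.9 CPM and GMP-like cells at 23.7 ± 4.15 CPM. The dendritic-like value lay above the erythroid-like value in 6 of 8 pools and the difference did not exceed its spread, whereas erythroid-like lay above B-like cells in 8 of 8. LTHSC-like cells had 6.17 ± 2.35 CPM, and no Tfrc UMI was found in the 49 T and NK-like cells.

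**Figure D2:**
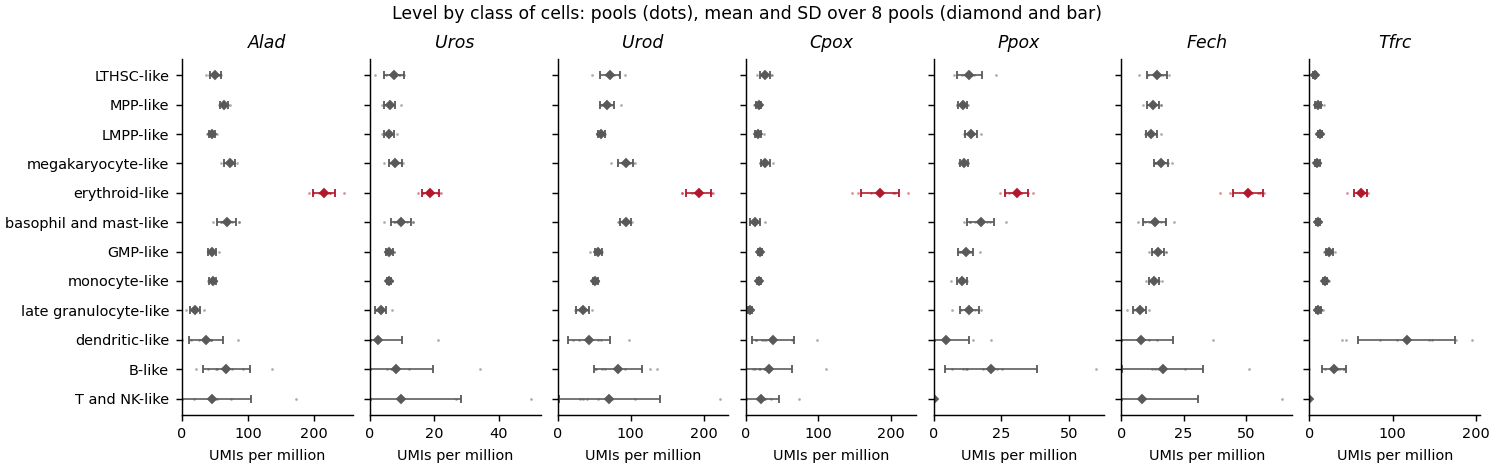
Level (CPM, linear axes from 0, a separate scale for each gene) of the 7 genes in 12 classes of cells named from markers. Dots are the 8 pools, diamonds their mean and bars their SD; erythroid-like cells (red) lead for the 6 enzymes and dendritic-like cells, with 79 cells, for Tfrc.

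Over the 33 clusters the members' log2 levels went together to different degrees. Pearson correlations among the 21 pairs of members ran from 0.586 to 0.952 with a median of 0.836, and are given as a description, since all clusters share the libraries and differ in depth. Of 10275 other genes, those most like Alad were Glrx5 (0.959) and Urod (0.952), and that most like Urod was Alad. Cpox was most like Paqr9 (0.955), Nxpe2 (0.954) and Rhd (0.953), Fech most like Rhag, the Rh-associated glycoprotein (0.950), and Ppox most like Fech (0.913). Uros was most like Dnaja4 (0.935) and Sptb, which encodes the red cell membrane protein beta spectrin (0.934). Tfrc had the weakest best match, Camsap2 (0.854), followed by Tmem14c (0.839).

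Co-housing was compared by summing the UMIs of all cells of a pool and testing 4 CVT pools against 4 SPF pools with edgeR. In all KL cells 0 of 7 members passed an adjusted p of 0.05, as did 0% of 13092 genes. Before adjustment 392 genes lay above and 529 below 0 with p under 0.05, and DESeq2 called 15 genes. Of the 7 members 6 had a log2 fold change above 0, compared with 46.5% of all genes, and their median was 0.14 compared with -0.01. In such sums fewer cells of a type and less RNA per cell cannot be told apart.

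Tfrc had the largest fold change of the members in KL cells. SPF pools 1, 2, 7 and 8 lay at 28.4, 26.4, 19.3 and 26.8 CPM. CVT pools 3, 4, 5 and 6 lay at 33.5, 30.2, 25.8 and 29.4 CPM. The groups overlapped through CVT pool 5, and 3 CVT pools were above all SPF pools. The log2 fold change was 0.29 (SE 0.116, unadjusted p = 0.0315, adjusted p = 0.680), in a direction in which 2.99% of all genes reached that unadjusted p. Within pools 1 to 4 the means were 31.9 CPM in CVT and 27.4 in SPF, and within pools 5 to 8 they were 27.6 and 23.1. The p rose above 0.05 when pool 3 (0.0828), pool 4 (0.0635) or pool 7 (0.0618) was left out, and was 0.00908 with the set of pools as a block (adjusted p = 0.255).

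None of the 6 enzymes had an unadjusted p under 0.05 between housing groups in KL cells. Cpox had a log2 fold change of 0.27 (SE 0.207, adjusted p = 0.807), and Fech 0.23 (SE 0.152, adjusted p = 0.766). Alad, Urod and Ppox lay between 0.12 and 0.14 and Uros at -0.08, with standard errors from 0.106 to 0.126. The 95% intervals of the 7 members together spanned -0.32 to 0.67.

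Erythroid-like cells made up 22.4, 18.96, 14.5 and 14.5% of the KL cells in SPF pools 1, 2, 7 and 8, and 23.8, 20.9, 16.4 and 17.6% in CVT pools 3, 4, 5 and 6. The means of 17.6 ± 3.84% and 19.7 ± 3.35% did not differ beyond their spread (exact permutation test over 70 regroupings, two-sided, p = 0.429, where the smallest p possible is 0.0286). The regroupings do not hold the set of pools fixed, so this spread includes the difference between the sets. Within pools 1 to 4 the means were 22.3% in CVT and 20.7% in SPF, and within pools 5 to 8 they were 16.96% and 14.5%. Inside these cells the share of cluster 2, the lowest in member levels, was 53.6% in SPF and 40.0% in CVT pools (exact permutation p = 0.0571). Its part in the differences below was not tested.

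In erythroid-like sums 0 of 7 members passed the adjusted p, as did 0% of 10595 genes, with 211 genes above and 315 below 0 at p under 0.05 before adjustment and 1 gene called by DESeq2. No member was among the 4.96% of genes at that p, while 1 (Tfrc) had a p under 0.05 by DESeq2. The median log2 fold change of the members was 0.08, and 6 of the 7 were above 0 compared with 49.6% of all genes, 1 of them (Ppox) by less than 0.01.

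Tfrc stood at 60.5, 59.6, 45.0 and 64.4 CPM in the erythroid-like cells of SPF pools 1, 2, 7 and 8. It stood at 67.7, 62.0, 62.6 and 70.5 CPM in those of CVT pools 3, 4, 5 and 6. SPF pool 7 lay far below the rest and the other pools overlapped. The log2 fold change was 0.20 (SE 0.0947, edgeR unadjusted p = 0.0553, adjusted p = 0.904), and 0.12 without pool 7.

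Uros was the member with a fold change below 0. Its SPF pools stood at 22.1, 20.7, 16.5 and 21.4 CPM in erythroid-like cells and its CVT pools at 15.02, 16.5, 17.8 and 19.7. The groups overlapped only through SPF pool 7, which lay among the CVT pools. The log2 fold change was -0.23 (SE 0.117, edgeR unadjusted p = 0.0664, adjusted p = 0.904).

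The same test was run within single erythroid-like clusters. In cluster 13, the one with the highest sum of 7 stage genes (Car1, Ermap, Rhd, Aqp1, Icam4, Hemgn and Mfsd2b), 0 of 7 members passed the adjusted p, as did 0% of 7990 genes (127 up and 164 down with p under 0.05 before adjustment, 0 by DESeq2). Clusters 2, 10 and 17 were added after the data were seen. In cluster 2 the counts were 0 of 7 members and 0% of 9026 genes (179 and 160 unadjusted, 0 by DESeq2). In cluster 10 they were 0 of 7 and 0% of 8895 genes (148 and 125 unadjusted, 0 by DESeq2), and in cluster 17 they were 0 of 7 and 0% of 8383 genes (128 and 135 unadjusted, 0 by DESeq2).

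Uros in cluster 17 was the lowest unadjusted p of any member in these fits. Its SPF pools 1, 2, 7 and 8 stood at 37.4, 39.7, 41.4 and 31.4 CPM. Its CVT pools 3, 4, 5 and 6 stood at 23.7, 24.9, 30.8 and 28.8 CPM. All 4 SPF pools lay above all 4 CVT pools, narrowly so for pools 8 and 5, and 1.22% of all genes were apart in this direction. The log2 fold change was -0.46 (SE 0.139, unadjusted p = 0.00326, adjusted p = 1), and 1.61% of genes were lower in CVT at an unadjusted p under 0.05. Leaving out a pool kept the p between 0.00158 and 0.0339, and DESeq2 gave 0.0185, and the difference did not pass adjustment. Pool 7 gave 13 Uros UMIs from 12 cells there. In clusters 2, 10 and 13 the log2 fold change of Uros was -0.41, -0.28 and -0.37, with unadjusted p of 0.0943, 0.134 and 0.0718 by edgeR.

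**Figure D3:**
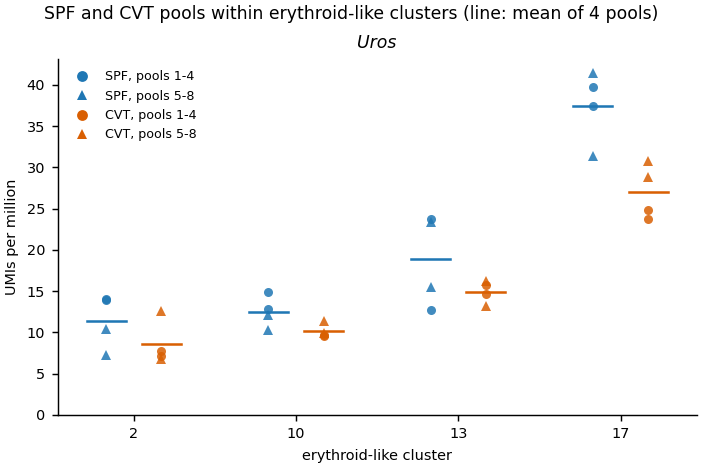
Level (CPM, linear axis from 0) of Uros in erythroid-like clusters 2, 10, 13 and 17, with SPF and CVT pools side by side. Each point is 1 pool, its shape gives the set of pools and the line is the mean of 4 pools; in cluster 17 the 4 SPF pools (31.4 to 41.4) lie above the 4 CVT pools (23.7 to 30.8), and no difference passed adjustment.

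GMP-like cells, named from a marker list for granulocyte and monocyte progenitors, were the class with the highest Alas1 (289 ± 47.3 CPM). At resolution 1, a coarser clustering, the markers found for this name included Elane, Mpo, Ms4a3, Cebpe and Gfi1. Here 0 of 7 members passed the adjusted p, as did 0% of 9042 genes (261 up and 181 down before adjustment, 0 by DESeq2). Ppox and Fech were 2 members among the 4.89% of genes at that unadjusted p and among the 3.80% of genes whose pools lay apart, in opposite directions. Ppox stood at 13.8, 17.1, 13.3 and 11.2 CPM in SPF and 9.88, 8.97, 9.91 and 10.4 CPM in CVT pools, with a log2 fold change of -0.45 (SE 0.188, edgeR unadjusted p = 0.0270, adjusted p = 0.999). Fech stood at 12.7, 13.8, 10.99 and 13.8 CPM in SPF and 18.01, 15.4, 17.8 and 14.1 CPM in CVT pools, with a log2 fold change of 0.36 (SE 0.168, edgeR unadjusted p = 0.0419, adjusted p = 0.999). These values rest on 267 and 378 UMIs in all. The unadjusted p of Ppox was 0.190 without pool 2 and that of Fech 0.108 without pool 3, and DESeq2 gave 0.0771 and 0.124.

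In LTHSC-like cells, the stem cell class, 4 of the 7 members passed the filter on low counts. None of them passed the adjusted p, as did 0% of 7085 genes (234 up and 162 down before adjustment, 0 by DESeq2), and none had an unadjusted p under 0.05. Cpox was at -0.40 (SE 0.239, edgeR unadjusted p = 0.104, adjusted p = 0.945), Urod at -0.22 and Alad at -0.20, and Fech at 0.09 on the log2 scale. Uros, Ppox and Tfrc had too few UMIs there to be tested.

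Other genes around the pathway gave 0 calls between housing groups in KL, erythroid-like, GMP-like and LTHSC-like sums. Genes named for their fold change in erythroid-like cells were Ncoa4, the ferritin receptor for its breakdown (-0.62, edgeR unadjusted p = 0.0541, at 1.13 and 1.82 CPM in CVT and SPF), Slc39a14, Slc25a37, Lyrm4 (0.18), Fdxr (-0.15), Bach1 (-0.22) and Hebp1 (0.16), and the adjusted p was 0.904 or more for each of them.

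The sets of pools differed more than the housing groups. In KL sums, with housing in the model, 4 of 7 members were called lower in the set of pools 5 to 8, compared with 9.57% of 13265 genes, and the same 4 had pools that lay apart, compared with 11.2%. Cpox stood at 71.2, 67.4, 83.5 and 84.8 CPM in the first 4 pools and at 50.2, 59.2, 38.96 and 62.7 CPM in the last 4. Its log2 fold change was -0.52 (SE 0.119, adjusted p = 0.0199). Alad had -0.33 (SE 0.0686, adjusted p = 0.0168; 108 ± 6.66 and 85.5 ± 7.92 CPM), Fech -0.38 (adjusted p = 0.0188; 26.9 and 20.4 CPM) and Urod -0.26 (adjusted p = 0.0267; 109 and 90.5 CPM). Ppox (-0.22, adjusted p = 0.0982), Tfrc (-0.21, 0.116) and Uros (-0.15, 0.308) were lower too but did not pass.

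The calls were lost when 1 of several pools was left out. Without pool 3, 4, 5 or 6 none of the 4 genes was called, with adjusted p from 0.0558 to 0.0915, while log2 fold changes stayed between -0.55 and -0.45 for Cpox, -0.41 and -0.36 for Fech, -0.33 and -0.29 for Alad and -0.25 and -0.23 for Urod. Without pool 2 or 7 Urod was not called (adjusted p = 0.0664 and 0.0779), and without pool 8 there were 6 called members. After thinning 2 were called, Alad and Cpox. Erythroid-like cells gave 32.8, 27.7, 33.9 and 31.6% of the UMIs of the first 4 pools and 23.6, 25.5, 18.4 and 23.2% of those of the last 4, and the part of this and of the late granulocyte markers in the KL difference was not tested. Inside erythroid-like cells the difference between the sets was smaller: 0 of 7 members were called, compared with 0.606% of 10722 genes, and none had an unadjusted p under 0.05. Log2 fold changes there were -0.07 for Alad, 0.13 for Uros, -0.01 for Urod, -0.12 for Cpox, -0.02 for Ppox, -0.09 for Fech and 0.03 for Tfrc. When pool 8 was left out Cpox was called there (-0.27, adjusted p = 0.0270).

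Alas2 went the other way. It stood between 0.670 and 0.962 CPM in the erythroid-like cells of pools 1 to 4, and pools 5, 6, 7 and 8 were at 9.39, 21.01, 40.6 and 21.95 CPM. Its log2 fold change was 4.62 (adjusted p = 2.101e-06), and that of Slc25a37 was 0.93 (adjusted p = 0.00311). The globin-led cluster 29 held 0.549 to 0.946% of the erythroid-like cells of each of the first 4 pools and 3.38 to 6.33% of the others, and globins moved with it. Inside cluster 29 Alas2 also differed, at 58.95 to 80.63 CPM in pools 1 to 4, from 3 to 12 UMIs per pool. In pools 5 to 8 it stood there at 324.8 to 632.4 CPM. The parts of the share and of the level inside the cluster were not tested. Without cluster 29, a comparison added after the data were seen, the erythroid-like log2 fold change of Fech was -0.36 (edgeR unadjusted p = 0.0161, adjusted p = 0.227) with pools apart, that of Cpox -0.24 and that of Alad -0.14, none of them called, and Alas2 had too few UMIs to be tested. Other named genes that did not pass between the sets were Fam210b (0.41, adjusted p = 0.123), Steap3 (-0.34, 0.145), Fdxr (-0.33, 0.142), Hspa9 (-0.26, 0.122), Pgrmc1 (-0.26, 0.109), Hmox1 (1.97, 0.0836) and Ncoa4 (0.18, 0.786).

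**Figure D4:**
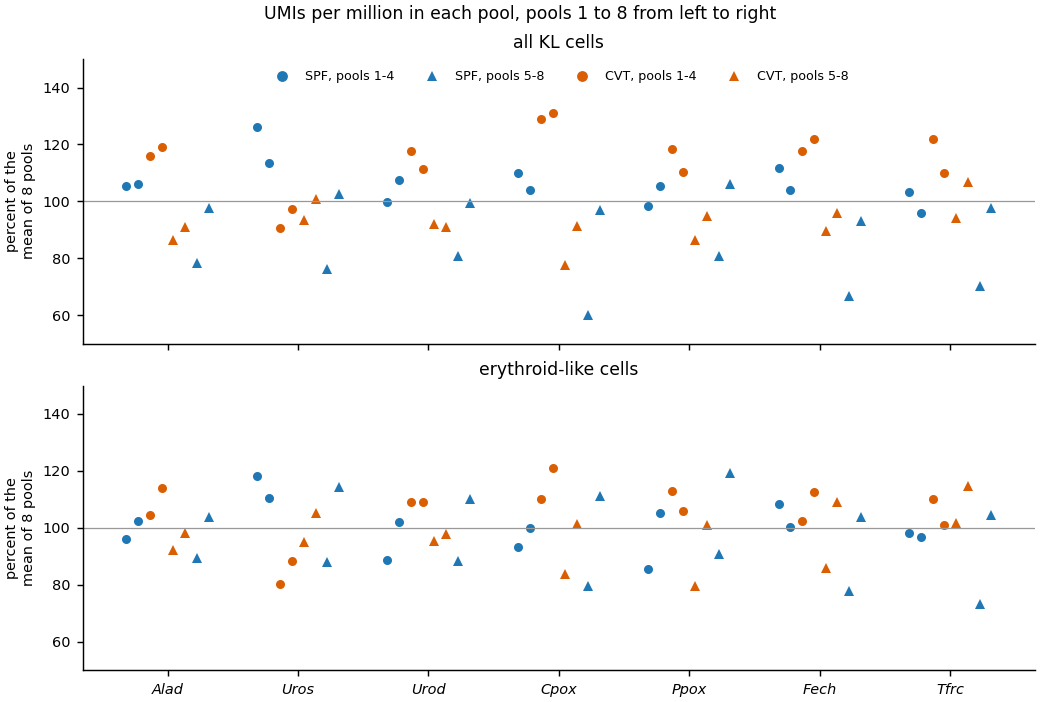
Level of each gene in each pool as a percent of its own mean over 8 pools (vertical axis from 50 to 150), pools 1 to 8 from left to right, for all KL cells (top) and erythroid-like cells (bottom). Colour gives SPF or CVT and shape the set of pools; in KL cells Alad, Urod, Cpox and Fech of pools 5-8 lie below those of pools 1-4, which is not seen in erythroid-like cells.

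The difference between housing groups was also tested for a difference between the sets of pools. The interaction was called for 0 of 7 members in KL sums, as for 0% of 13475 genes (517 up and 691 down with p under 0.05 before adjustment), and for 0 of 7 in erythroid-like sums, as for 0% of 10898 genes (397 and 453). No member had an unadjusted p under 0.05 in either.

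**Figure D5:**
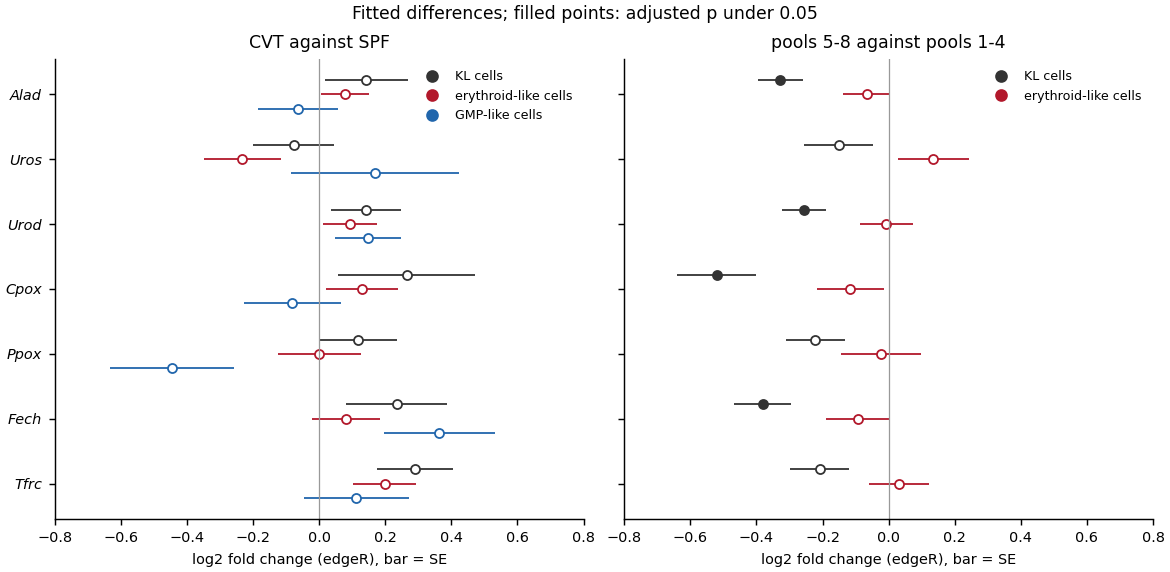
Log2 fold changes from edgeR (horizontal axis, bars are 1 SE) of CVT against SPF pools (left) and of pools 5-8 against pools 1-4 (right) for the 7 genes, in KL, erythroid-like and, on the left, GMP-like sums. Filled points passed an adjusted p of 0.05: these are Alad, Urod, Cpox and Fech in KL cells on the right and none on the left.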

How the data were processed

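Single-cell RNA was measured in 8 pools of sorted KL cells, 4 SPF and 4 CVT. The authors deposited 1 table of UMI counts per gene and cell, not normalized, made with Cell Ranger and build mm9 per the submitters' processing notes (versions and cell filters are not given in the sources used here). The number that ends a cell name gave its pool, and no column of values was left without a pool. All 29891 cells were kept.

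Cells were scaled to 10000 UMIs and clustered with scanpy 1.11.5 and leidenalg 0.10.2 (1000 variable genes without the heme and iron lists, 30 principal components, 30 neighbours, resolution 2). A cluster was named from at least 3 markers among its 100 most specific genes. Scrublet marked 92 cells (0.308%), too few to be a working call, so doublets were kept, and leaving out the 1536 cells with the highest scores was an alternative. Cells were also thinned to 2759 UMIs. Counts were summed per pool and population and tested with edgeR 4.0.16 (TMM, quasi-likelihood, filterByExpr, Benjamini-Hochberg over all genes tested) in R 4.3.3, with DESeq2 1.42.0 as an alternative. The edgeR script was tested on simulated counts. Shares of cells were compared by an exact permutation test over 70 regroupings, without the set of pools as a block.

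The 7 genes, the lists and the tests were chosen with earlier results of these data known. Named genes were the 7, Alas1, Alas2, the 2 genes of each other list with the largest fold change by housing and by set of pools in erythroid-like sums, and the 3 genes most like each of the 7 over clusters (log2 of CPM + 10, at least 10 CPM in some cluster), apart from some that are not reported here. The labels name 2 or 3 mice per pool, so p-values measure the spread between pools.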

Additional observations from a re-analysis of the deposited data

Results flagged for a closer look

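In 84 groups of 4 pools (the 7 genes in 6 populations and 2 housing groups), 5 had a pool further from the rest than Dixon's 95% critical value allows, and chance flags about 1 in 20 groups. Fech gave 3 of them. In erythroid-like cluster 13 CVT pool 5 stood at 36.77 CPM, below 56.76 to 56.83 CPM in the others. In erythroid-like cluster 17 SPF pool 7 stood at 47.78 CPM, from 15 UMIs, below 73.69 to 76.43 CPM in the others, and CVT pool 4 at 77.69 CPM, above CVT pools at 71.87 to 72.56 CPM. Cpox in GMP-like cells stood at 16.48 CPM in SPF pool 7, below 21.66 to 22.48 CPM in the others. Tfrc in LTHSC-like cells stood at 7.919 CPM in CVT pool 3, above 5.143 to 5.286 CPM in the others.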

How the results depend on the processing

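For the 7 genes between housing groups in KL and erythroid-like sums, 236 of 245 alternative values kept their direction and side of the threshold, 9 changed sign and 0 were called, with a lowest adjusted p of 0.255 (edgeR or DESeq2). The cause of the changes below was not tested. Ppox in erythroid-like cells was at -0.00343 with the set of pools as a block, -0.00411 with the cell filter and -0.0105 at resolution 1, and between -0.0799 and 0.11 when 1 pool was left out, and Uros in KL cells was between -0.18 and 0.0102.

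Over all genes, housing calls numbered 15 by DESeq2 and 4 with the block in KL cells, and 4 without the filter on low counts and 1 by DESeq2 in erythroid-like cells. Without the filter they numbered 25 in cluster 13, 24 in GMP-like and 22 in LTHSC-like cells. With the block they numbered 15 in cluster 13, 2 in GMP-like cells, 6 in cluster 2, 2 in cluster 10 and 1 in cluster 17. Leaving out 1 pool gave 0 to 3 in cluster 13, 0 to 2 in GMP-like, 0 to 1 in LTHSC-like cells, 0 to 4 in cluster 2, 0 to 3 in cluster 10 and 0 to 1 in cluster 17.

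Between the sets of pools in KL cells, thinning gave 2 members and 880 genes, and leaving out 1 pool gave 0 to 6 members and 79 to 4543 genes (1372 higher and 1270 lower with all pools). In erythroid-like cells leaving out 1 pool gave 0 to 1 members and 46 to 1487 genes (65 with all pools), and there were 553 genes without the filter, 101 by DESeq2 and 33 without the globin-led cluster. Without that cluster Uros was at -0.0386 and Tfrc at -0.10, and after thinning Ppox was at 0.0729 and Fech at 0.0509. Leaving out 1 pool gave -0.12 to 0.0312 for Urod, -0.19 to 0.10 for Ppox, -0.0544 to 0.11 for Tfrc, -0.21 to 0.0797 for Alas1 and -0.0260 to 0.46 for Ncoa4. Thinned ratios of erythroid-like to other cells were 3.57 for Alad, 2.58 for Uros and 2.57 for Urod. Pool numbers pair no samples, since no number occurs in both housing groups, and the set of pools served as the block. Uros, Ppox and Tfrc had too few UMIs in LTHSC-like cells to be tested.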
